A study of Mus musculus with 30 samples.

Results

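The genes described here encode splicing factors: the 49 mouse genes whose symbol begins with Srsf, Hnrnp, Sf3a, Sf3b, Snrp, U2af or Esrp and which are the single gene named for a probe set in the annotation of the arrays. A probe set is the group of short probes on an array that together report 1 transcript. These genes had 107 of the 36701 probe sets, out of 15964 genes named in the same way, and every probe set was kept. They comprise 9 SR protein genes (29 probe sets), 18 hnRNP genes (37), 8 genes of the SF3A and SF3B complexes (16), 9 snRNP protein genes (20), 3 U2AF genes (3) and 2 ESRP genes (2). The rule reads gene names only, and the group was proposed with earlier results of these data known.

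RNA was measured in whole embryonic ovaries of mice of a BL/6-129 background at 5 ages, 11.5, 12.5, 14.5, 16.5 and 18.5 days post coitum (dpc). The labels name no further genotype and no treatment. Ovaries were pooled, and there were 2 numbered samples an age, each on 3 Affymetrix arrays (A, B and C) that carry different probe sets, giving 30 arrays. The labels do not tell whether the A, B and C arrays of a number received the same RNA, and values given per sample across arrays treat them as 1 sample. For the younger ages the labels state that the sex of the gonads was found by PCR for Sry, a gene of the Y chromosome. Nothing in the labels tells whether the paired numbers at an age stand for separate pools of ovaries or for repeats of 1 pool, so p-values here reflect only how far such samples differ, and part of that may be technical.

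Splicing removes introns from messenger RNA precursors. It is carried out by the spliceosome, which is built from small nuclear ribonucleoproteins (snRNPs), particles of a small RNA and a ring of Sm proteins. U2AF and the SF3A and SF3B complexes help the U2 snRNP to find the end and the branch point of the intron, while SR proteins and hnRNP proteins bind the transcript and favour or block the use of nearby splice sites. SR proteins, many hnRNPs and the core snRNP proteins are made in nearly all cells, and ESRP proteins mainly in epithelial cells.

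Probe set signals of the splicing factors were on balance lower in the later ovaries. The comparison with the most samples set the mean of 16.5 and 18.5 dpc (late, 4 samples) against the mean of 11.5 and 12.5 dpc (early, 4 samples). A call means an adjusted p under 0.05 from limma, a linear model fitted to log2(signal + 16) of all 24825 probe sets with a signal of 50 or more on 2 or more of 10 arrays. Of the 107 splicing factor probe sets, 93 passed that filter, from 48 genes. Of these 93, 32 were called lower late and 3 higher, together 37.6%. Of all tested probe sets 20.1% were called, 9.59% lower and 10.5% higher. The median log2 change of the splicing factors was -0.34, against -0.00 over all tested probe sets, and 20 of the 93 lay above 0. The 32 falls came from 25 genes and ran from 1.35-fold to 2.85-fold with a median of 1.65-fold. Folds throughout are on the log2(signal + 16) scale, which understates changes of dim probe sets.

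The falls could be seen in the signals themselves. For 33 of the 93 probe sets, all 4 late signals lay below all 4 early signals, and for 2 all 4 lay above. Over all tested probe sets these shares were 9.69% and 10.3%. The mean of log2(signal + 16) was highest at 11.5 dpc for 45.16% of the splicing factor probe sets, at 12.5 dpc for 26.88%, and at 18.5 dpc for 6.45%. Over all tested probe sets the shares were 21.71%, 20.25% and 23.81%. The median over the 93 probe sets of the log2 signal, taken relative to each probe set's own mean, was 0.20 and 0.26 in the samples of 11.5 dpc, 0.12 and 0.20 at 12.5, 0.02 and 0.06 at 14.5, -0.14 and -0.18 at 16.5 and -0.24 and -0.30 at 18.5 dpc. The medians went down with each age, with 11.5 and 12.5 dpc meeting at 0.20, and the median over all probe sets stayed between -0.03 and 0.02.

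**Figure D1:**
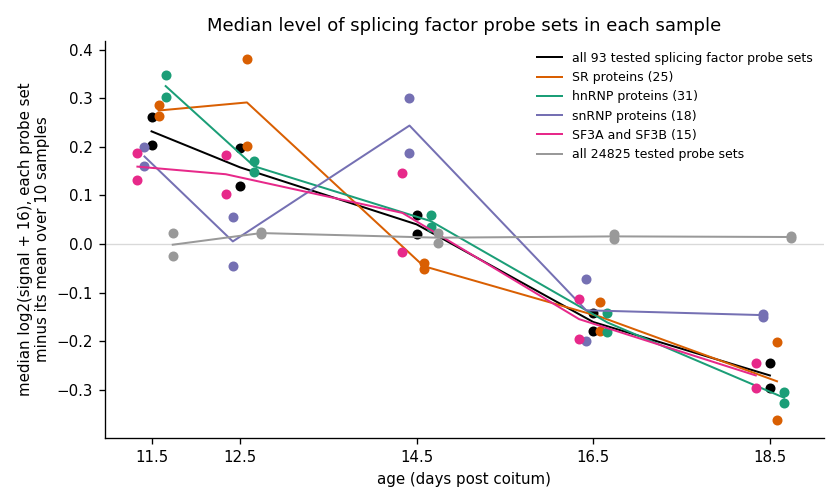
Median log2 signal relative to each probe set's mean over the 10 samples (y axis) by age in days post coitum (x axis), for the 93 tested splicing factor probe sets, for 4 of their families and for all 24825 tested probe sets. Each point is 1 sample, the lines join the means of 2 samples, and points are set slightly apart along the x axis to be seen. The splicing factor points go from 0.20 and 0.26 at 11.5 dpc to -0.24 and -0.30 at 18.5 dpc, while those of all probe sets stay near 0.

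Because the tissue was measured in bulk, fewer cells of a type and less RNA per cell cannot be told apart. The list of markers of dividing cells moved with the splicing factors: of its 33 tested probe sets, 23 were called lower late and 1 higher. Their summed signal was 12747.7 to 14808.8 in the early and 8136.2 to 8986.3 in the late samples, with none listed at 0. Markers of primordial germ cells were called lower late for 12 of 15 probe sets, and their summed signal was 3185.3 to 5274 early and 703.8 to 2186 late. Within the late samples this sum was 877.8 and 703.8 at 16.5 dpc and 2186 and 2097.2 at 18.5 dpc. Between these 2 ages 2 of the 15 were called higher and none lower, against 0.431% and 0.193% of all tested probe sets. Markers of endothelium were called lower for 5 of 12 (sums 1275.5 to 1562.1 early, 856.2 to 1068.1 late), and those of testis supporting and steroid cells lower for 5 of 13 and higher for 1 (sums 2639.2 to 2989 early, 1379.8 to 1883.2 late). Called higher were 13 of 14 probe sets for meiotic germ cells, 9 of 14 for oocytes and 7 of 16 for supporting cells of the ovary. So were 8 of 12 for epithelia and 8 of 18 for mesenchyme, where 4 more were lower. Red blood cell markers were called lower for 4 of 10 and higher for 3. Markers of mesonephros and kidney tubule were called higher for 1 of 4, and those of macrophages for none of 9 in either direction. Over all tested probe sets 9.59% were called lower late and 10.5% higher. The sum of the meiotic list was 1850.9 to 2627.1 early. It was 12792.3 and 15615.6 at 14.5, 11759.6 and 10514.1 at 16.5, and 6214.7 and 7391.3 at 18.5 dpc. The ratio of the Gapdh control probe sets near the transcript's 3′ and 5′ ends, which rises when RNA is less complete, was 0.829 to 0.845 in the early samples, 0.885 and 0.951 at 14.5, 0.917 and 1.09 at 16.5, and 1.08 and 1.05 at 18.5 dpc. The Gapdh ratio of the early samples did not overlap that of any later sample. The same ratio of the other 3 mouse controls overlapped between early and late samples, at 1.18 to 1.77 and 1.54 to 1.82 for b-actin, 2.28 to 3.33 and 2.76 to 3.05 for the transferrin receptor, and 0.966 to 2.08 and 1.65 to 2.14 for pyruvate carboxylase. The part of these cells and ratios in the splicing factor changes was not tested.

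Brighter probe sets are measured with less spread, and splicing factor probe sets were brighter than most, with a median log2 signal of 8.03 against 7.02. Among probe sets with a mean log2 signal of at least 8, 20 of 47 splicing factor probe sets (42.6%) were called, all of them lower late. Of all 5827 such probe sets 31.5% were called, 864 higher and 969 lower. By array type, 47.4% of the 57 splicing factor probe sets on array A were called against 29.3% of all, 31.2% of the 16 on array B against 19.3%, and 15% of the 20 on array C against 12.7%.

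**Figure D2:**
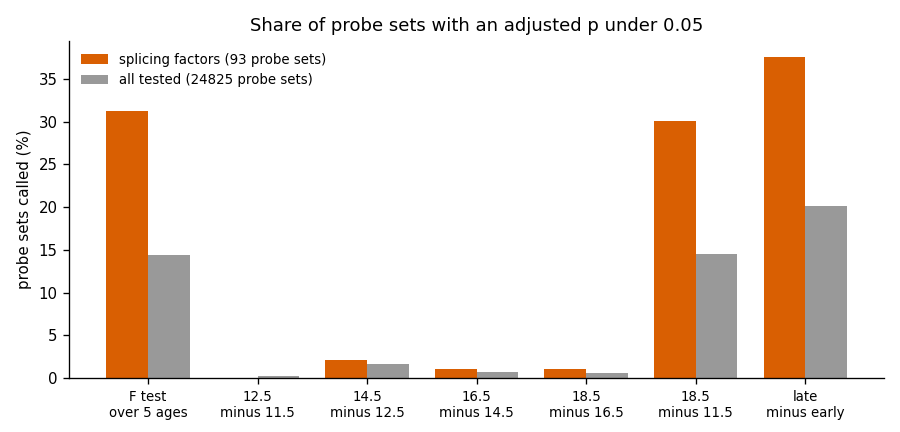
Percent of tested probe sets called (y axis, limma adjusted p under 0.05) in each of the 7 comparisons (x axis), for the 93 splicing factor probe sets and for all 24825. The splicing factor bars stand above the others in the test over all ages (31.2% against 14.4%), in 18.5 minus 11.5 dpc (30.1% against 14.5%) and in late minus early (37.6% against 20.1%), and all bars between neighbouring ages are below 3%.

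SR proteins carry a domain of alternating arginine and serine and bind enhancer sequences in exons. Of their 25 tested probe sets, 11 from 6 genes were called lower late and none was called higher, 44% against 20.1% of all tested. The median log2 change was -0.53. An unadjusted p under 0.05 was found for 13 of the 25 and for 8206 of all 24825 tested. Srsf1, Srsf2, Srsf3, Srsf6, Srsf10 and Srsf11 each had at least 1 probe set that fell, whereas Srsf4, Srsf5 and Srsf9 had none. Srsf2 encodes SC35, a protein of nuclear speckles where splicing factors gather. One Srsf2 probe set read 846 and 783 at 11.5 dpc, 833 and 854 at 12.5, 522 and 553 at 14.5, 427 and 311 at 16.5, and 289 and 341 at 18.5 dpc (log2 change -1.25 ± 0.12 SE, 2.38-fold, limma adjusted p = 2.3e-05). All samples from 14.5 dpc on were lower than all earlier samples. A second Srsf2 probe set went from 2094 ± 101 to 1820.2 ± 130.0 (SD over 4 samples of 2 ages, as for all early and late means here), and this was not called (-0.20, adjusted p = 0.17).

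Srsf1 encodes the SR protein also known as ASF/SF2. Its probe set with the smallest p read 334 and 300.4 at 11.5 dpc, 339 and 339 at 12.5, 172 and 235 at 14.5, 119.6 and 107 at 16.5, and 154 and 145 at 18.5 dpc (log2 change -1.23 ± 0.12 SE, 2.35-fold, limma adjusted p = 3.5e-05). Here too the early samples were higher than all others, and the lowest signals were at 16.5 dpc. Other Srsf1 probe sets on array A fell as well, with log2 changes of -1.02, adjusted p = 0.0013, and -0.70, adjusted p = 0.0067. A Srsf1 probe set on array C was not called (0.32, adjusted p = 0.53). Another, on array B, followed a different course, with signals of 206 and 273 at 11.5 dpc, 392 and 410.0 at 12.5, 147 and 171 at 14.5, 269 and 200.2 at 16.5, and 281 and 269 at 18.5 dpc. Its signals were highest at 12.5 and lowest at 14.5 dpc, and between those ages it fell (log2 change -1.25 ± 0.22 SE, 2.38-fold, limma adjusted p = 0.0096). That call was lost at adjusted p = 0.080 without sample 1 of 12.5 dpc, 0.093 without sample 2 of 12.5 dpc and 0.074 without sample 1 of 14.5 dpc.

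Srsf3, which encodes the smallest SR protein, had both tested probe sets called. The brighter one read 1935 and 1069.6 at 11.5 dpc, 789.6 and 952 at 12.5, 699.5 and 918 at 14.5, 419.9 and 403 at 16.5, and 520.0 and 451 at 18.5 dpc (log2 change -1.29 ± 0.17 SE, 2.45-fold, limma adjusted p = 0.00025). The signal of sample 1 at 11.5 dpc stood well above the other early samples, and all 4 late samples were below every early one. The other read 236 and 130.0 at 11.5 dpc, 137 and 158 at 12.5, 107 and 153 at 14.5, 110.4 and 92.8 at 16.5, and 65.6 and 89.3 at 18.5 dpc (-0.76, adjusted p = 0.012), and adjusted p = 0.0504 without sample 2 of 12.5 dpc. Its early and late signals did not overlap, although they came close, at 130.0 or above and 110.4 or below.

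For Srsf11, whose protein resembles SR proteins, 3 of 6 tested probe sets fell. The one with the smallest p read 469 and 575 at 11.5 dpc, 694 and 683 at 12.5, 429.6 and 467 at 14.5, 469 and 347 at 16.5, and 272 and 261 at 18.5 dpc (log2 change -0.83 ± 0.14 SE, 1.78-fold, limma adjusted p = 0.00097), and both signals of 18.5 dpc were the lowest. A probe set on array A fell by 0.58 on the log2 scale (adjusted p = 0.0019), and its signals of 756, 743, 701 and 710.1 early compared with 557, 633, 407 and 376 late. The remaining call was -0.44, adjusted p = 0.047, and it was lost at adjusted p = 0.065 with no filter, 0.055 after quantile normalization, 0.058 with the sample number as a replicate block, and 0.056 to 0.15 on leaving out sample 2 of 11.5 dpc, either sample of 12.5 dpc, either sample of 16.5 dpc or either sample of 18.5 dpc. The 3 uncalled probe sets of Srsf11, all on array C, changed by -0.89, 0.06 and 0.07. Srsf10, whose protein can repress splicing, had 1 of 2 probe sets called, from 143 ± 10.7 to 84.8 ± 26 (-0.69, adjusted p = 0.0098). Srsf6 had 1 of 4 called, from 427 ± 120.4 to 252 ± 61.2 (-0.70, adjusted p = 0.014), and that call was lost at adjusted p = 0.0504 without sample 1 of 11.5 dpc, 0.074 without sample 2 of 12.5 dpc, 0.068 without sample 2 of 16.5 dpc and 0.056 without sample 2 of 18.5 dpc.

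The hnRNP proteins package new transcripts and often oppose SR proteins. Of 31 tested probe sets, 13 from 11 genes were called lower late and 1 higher, 45.2% together against 20.1% of all tested, and the median log2 change was -0.54. Their falls, of 1.45-fold to 1.83-fold, were smaller than the largest ones of the SR and snRNP genes. No call was made for Hnrnpa1, Hnrnpab, Hnrnpc, Hnrnph3, Hnrnpl or Hnrnpul1. Hnrnpk encodes a protein that binds runs of C. Its probe set read 756 and 817 at 11.5 dpc, 762 and 769.5 at 12.5, 606 and 607 at 14.5, 492 and 447 at 16.5, and 491 and 491 at 18.5 dpc (log2 change -0.68 ± 0.10 SE, 1.6-fold, limma adjusted p = 0.00049). The signals formed 3 levels, with the early samples highest, 14.5 dpc between, and all late samples within 447 to 492.

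Hnrnph1, whose protein binds runs of G, read 1932 and 2059.8 at 11.5 dpc, 1903 and 1887 at 12.5, 1509 and 1479.8 at 14.5, 1601 and 1395 at 16.5, and 1082 and 992 at 18.5 dpc (log2 change -0.64 ± 0.10 SE, 1.56-fold, limma adjusted p = 0.00071). It was lowest in both samples of 18.5 dpc. Its other tested probe set, a dim one on array B, was not called (-0.46, adjusted p = 0.38). Hnrnpa2b1, whose protein also takes part in RNA transport, had both probe sets called. The bright one read 3255 and 3034 at 11.5 dpc, 2482 and 2676 at 12.5, 2439.8 and 2519 at 14.5, 1834 and 1793 at 16.5, and 2119 and 2089 at 18.5 dpc (log2 change -0.54 ± 0.09 SE, 1.45-fold, limma adjusted p = 0.0015), and was lowest at 16.5 dpc. The dim one went from 192 ± 30.2 to 106 ± 23.9 (-0.78, adjusted p = 0.0015).

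Hnrnpdl likewise had both of its tested probe sets called. One read 2440.1 and 1654 at 11.5 dpc, 1700.0 and 1605 at 12.5, 1709 and 1598 at 14.5, 851 and 929 at 16.5, and 1439 and 1282 at 18.5 dpc (log2 change -0.72 ± 0.12 SE, 1.65-fold, limma adjusted p = 0.0017). Its signals lay between 1598 and 1709 through 14.5 dpc apart from 1 sample of 11.5 dpc, were lowest at 16.5 dpc and were higher again at 18.5 dpc. Between 14.5 and 16.5 dpc this probe set fell by 0.88 on the log2 scale (adjusted p = 0.045). That interval's call was lost at adjusted p = 0.076 with no filter, and 0.075 to 0.17 on leaving out either sample of 12.5 dpc, either sample of 14.5 dpc, either sample of 16.5 dpc or either sample of 18.5 dpc. The other Hnrnpdl probe set went from 325 ± 34.5 to 182 ± 24.5 (-0.79, adjusted p = 0.0021).

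Hnrnpd, known as AUF1, a protein that binds AU-rich elements, had 1 of 3 probe sets called, from 747 ± 79.3 to 478 ± 30.7 (-0.62, adjusted p = 0.0031). Falls of similar size were seen for Hnrnpll, a regulator of Ptprc splicing in lymphocytes (-0.64, adjusted p = 0.0023), Hnrnpr (-0.66, adjusted p = 0.0045), Hnrnph2 (-0.79, adjusted p = 0.0062) and Hnrnpa0 (-0.87, adjusted p = 0.0076). In these 5 probe sets the late signals did not overlap the early ones. The Hnrnpa0 signals were highest at 14.5 dpc, at 145 and 181. A second tested Hnrnpll probe set, on array B, was not called (-0.56, adjusted p = 0.079), and its early and late signals overlapped. Hnrnpm was called on 1 of 2 probe sets (-0.56, adjusted p = 0.011), on array C, where early and late signals overlapped. This probe set read 2603 and 2697 at 11.5 dpc, 1809 and 1974 at 12.5, 1942.5 and 2430.5 at 14.5, 1837 and 1962 at 16.5, and 1180 and 1244 at 18.5 dpc. Its call was lost without sample 2 of 12.5 dpc and without sample 1 of 18.5 dpc. The other Hnrnpm probe set, on array A, was not called (-0.28, adjusted p = 0.11). Hnrnpu, which encodes a nuclear scaffold protein, was called on 1 of 2 tested probe sets (-0.72, adjusted p = 0.043), and that call was lost at adjusted p = 0.076 with no filter, and 0.056 to 0.18 on leaving out sample 2 of 11.5 dpc, sample 1 of 12.5 dpc, either sample of 16.5 dpc or either sample of 18.5 dpc.

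Hnrnpul2, a relative of Hnrnpu, was the only hnRNP gene called higher. Its probe set read 174 and 145 at 11.5 dpc, 159 and 146 at 12.5, 194 and 158 at 14.5, 192 and 246 at 16.5, and 257 and 252 at 18.5 dpc (log2 change 0.55 ± 0.13 SE, 1.47-fold, limma adjusted p = 0.0093). All 4 late signals were above the early ones. The second Hnrnpul2 probe set showed no such difference, at 138 ± 7.43 to 129 ± 18.8 (-0.09, adjusted p = 0.68).

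**Figure D3:**
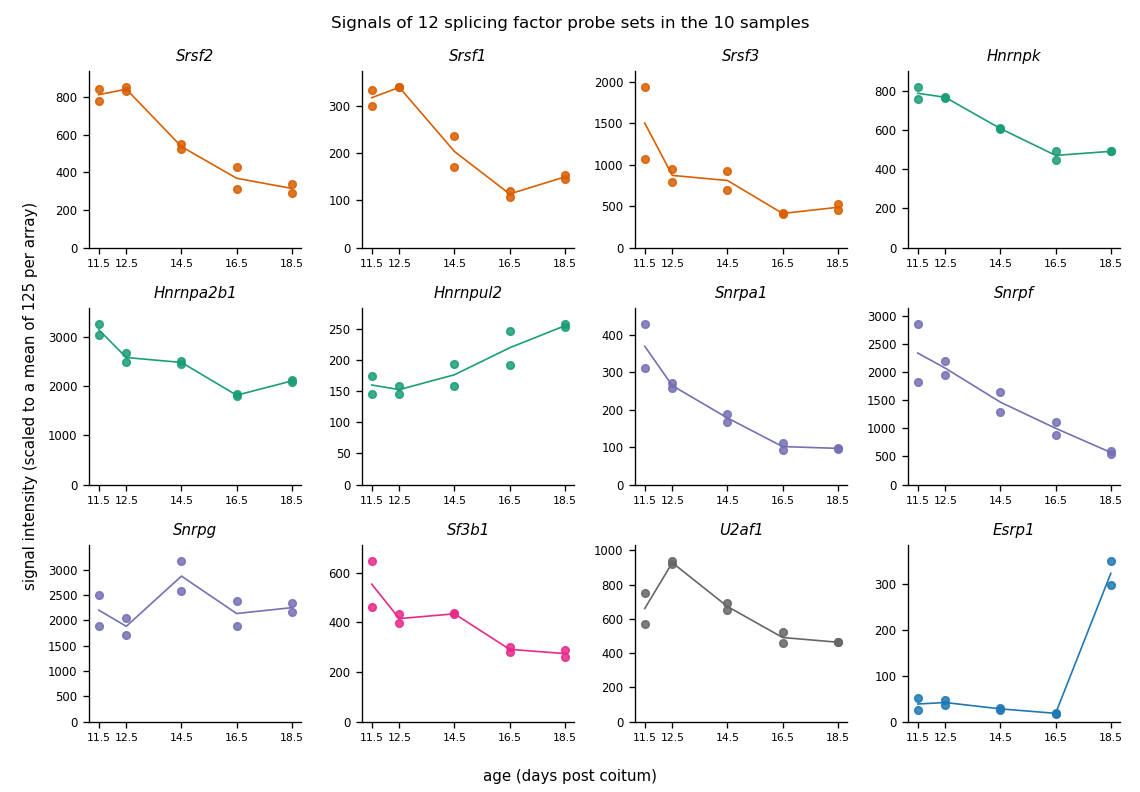
Signal intensity (y axes, linear, each from 0) by age in days post coitum (x axes) for 12 splicing factor probe sets, coloured by family, with each point 1 sample and the line through the means of the 2 samples of an age. Snrpa1 goes from 428 and 310.5 at 11.5 dpc to 98.2 and 94.9 at 18.5 dpc, and Esrp1 from 18.7 and 17.1 at 16.5 dpc to 297 and 349.8 at 18.5 dpc.

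Among snRNP protein genes, 4 of 18 tested probe sets fell and 1 rose late minus early, 27.8% together against 20.1% of all tested, and the median log2 change was -0.17. The median of this family in each sample, on the scale of the plot of sample medians, was 0.30 and 0.19 at 14.5 dpc and overlapped that at 11.5 dpc (0.16 and 0.20). Snrpa1, which encodes the A′ protein of the U2 snRNP, had, with Snrpf, the largest log2 change of the splicing factor probe sets late minus early. It read 428 and 311 at 11.5 dpc, 271 and 257 at 12.5, 189 and 166 at 14.5, 91.6 and 111 at 16.5, and 98.2 and 94.9 at 18.5 dpc (log2 change -1.51 ± 0.13 SE, 2.85-fold, limma adjusted p = 1.1e-05). Each age's samples were below those of the age before until 16.5 dpc, after which the signals overlapped.

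Snrpf encodes a protein of the Sm ring. Its probe set read 2849.5 and 1825 at 11.5 dpc, 2194 and 1942 at 12.5, 1640.2 and 1287 at 14.5, 1116 and 883 at 16.5, and 542 and 598 at 18.5 dpc (log2 change -1.51 ± 0.17 SE, 2.84-fold, limma adjusted p = 4.8e-05). Both signals at 18.5 dpc were below those at 16.5 dpc. Snrpe, of the same ring, had 2 tested probe sets. The bright one overlapped between early and late samples, at 2843 ± 924 to 2484 ± 412 (-0.16, adjusted p = 0.50). The dim one was called (-1.37, adjusted p = 0.039), yet sample 1 of 16.5 dpc read 120.6 beside 12.7, 26.4 and 21.1 in the other late samples. That call was lost at adjusted p = 0.063 with no filter, and 0.057 to 0.12 on leaving out either sample of 11.5 dpc, either sample of 12.5 dpc, either sample of 14.5 dpc, sample 2 of 16.5 dpc or either sample of 18.5 dpc. Snrpg, a further ring member with a single probe set, read 2506 and 1893 at 11.5 dpc, 1715 and 2046 at 12.5, 3165 and 2578 at 14.5, 1878 and 2388 at 16.5, and 2163 and 2334 at 18.5 dpc and was not called (0.11, adjusted p = 0.61). Its highest signals were at 14.5 dpc.

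Snrpd3, also of the Sm ring, fell on its array A probe set, which read 443 and 688 at 11.5 dpc, 649.9 and 719 at 12.5, 385 and 393 at 14.5, 259 and 341 at 16.5, and 391 and 388 at 18.5 dpc (log2 change -0.82 ± 0.14 SE, 1.77-fold, limma adjusted p = 0.0017). Its 3 probe sets on array C were not called, with log2 changes of -0.10, 0.19 and 1.03. The last of these, at adjusted p = 0.066, was dim, with signals of 24.6 to 154.8. Snrpb, which encodes Sm proteins B and B′, was not called late minus early on either tested probe set (-0.32, adjusted p = 0.057, and -0.09, adjusted p = 0.80). The first was called lower between 11.5 and 18.5 dpc, from 2629 and 2762 to 1836 and 1807 (-0.56, adjusted p = 0.028), and this was lost at adjusted p = 0.14 after quantile normalization, 0.067 without sample 2 of 11.5 dpc, 0.14 without sample 1 of 18.5 dpc and 0.15 without sample 2 of 18.5 dpc. Snrpn, a close relative of Snrpb, was not analysed here.

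Snrpb2, which encodes the B″ protein of the U2 snRNP, was called higher on 1 of 3 probe sets, with signals of 67.9 and 34.2 at 11.5 dpc, 40.8 and 52.2 at 12.5, 89.7 and 67.1 at 14.5, 80.0 and 85.3 at 16.5, and 129 and 80.1 at 18.5 dpc (log2 change 0.76 ± 0.20 SE, 1.7-fold, limma adjusted p = 0.017). The call was lost at adjusted p = 0.066 without sample 1 of 12.5 dpc, 0.059 without sample 2 of 16.5 dpc and 0.082 without sample 1 of 18.5 dpc, and the other probe sets changed by -0.14 and -0.17. For Snrpc, of the U1 snRNP, no probe set was called. Snrp1c-ps2, by its name a pseudogene, read 259.8 and 216 at 11.5 dpc, 59.7 and 66.1 at 12.5, 214 and 232 at 14.5, 247 and 204 at 16.5, and 132 and 40.4 at 18.5 dpc. Its signals were low at 12.5 dpc, rose by 14.5 dpc (log2 change 1.60 ± 0.33 SE, 3.03-fold, limma adjusted p = 0.032) and were lower at 18.5 than at 11.5 dpc (-1.47, adjusted p = 0.011). The size of that difference rests on 1 sample, at -2.17 without sample 1 and -0.77 without sample 2 of 18.5 dpc. The rise was lost at adjusted p = 0.064 with no filter, and 0.051 to 0.21 on leaving out either sample of 12.5 dpc, either sample of 14.5 dpc or either sample of 16.5 dpc, and the difference between the first and last ages with adjusted p = 0.058 without sample 1 of 11.5 dpc and 0.066 without sample 2 of 18.5 dpc. The probes may also bind transcripts of the functional gene, so this value is uncertain.

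The DNA before the start of these genes was examined for the letters of 5 common promoter motifs. Windows were the 250 bases before each RefSeq transcript start (build GRCm38.p6), and 41 of the 49 genes had an entry, with 52 windows. Those of Snrpa1 and Snrpf, with the largest falls, of Srsf2, with the smallest p among SR genes, and of Snrpg, a Sm ring gene without a call, are shown 5′ to 3′ in the direction of the gene, with any motif word in capitals. They lie at chr7:66060086-66060335 (plus strand), chr10:93589659-93589908 (minus), chr11:116853095-116853344 (minus) and chr6:86371290-86371539 (plus), in that order.
Snrpa1: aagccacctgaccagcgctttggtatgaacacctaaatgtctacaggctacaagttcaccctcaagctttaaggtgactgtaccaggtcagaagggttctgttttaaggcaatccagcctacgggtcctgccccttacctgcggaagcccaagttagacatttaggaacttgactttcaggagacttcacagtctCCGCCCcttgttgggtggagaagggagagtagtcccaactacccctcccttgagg
Snrpf: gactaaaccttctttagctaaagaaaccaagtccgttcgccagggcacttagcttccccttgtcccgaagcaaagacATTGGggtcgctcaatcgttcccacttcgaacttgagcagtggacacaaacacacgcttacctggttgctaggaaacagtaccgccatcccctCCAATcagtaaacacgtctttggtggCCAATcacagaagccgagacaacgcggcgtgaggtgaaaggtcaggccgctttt
Srsf2: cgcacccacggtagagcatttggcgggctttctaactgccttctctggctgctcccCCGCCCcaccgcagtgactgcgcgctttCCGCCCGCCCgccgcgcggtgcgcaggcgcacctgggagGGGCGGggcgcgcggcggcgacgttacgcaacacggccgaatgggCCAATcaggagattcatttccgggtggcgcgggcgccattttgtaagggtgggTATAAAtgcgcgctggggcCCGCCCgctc
Snrpg: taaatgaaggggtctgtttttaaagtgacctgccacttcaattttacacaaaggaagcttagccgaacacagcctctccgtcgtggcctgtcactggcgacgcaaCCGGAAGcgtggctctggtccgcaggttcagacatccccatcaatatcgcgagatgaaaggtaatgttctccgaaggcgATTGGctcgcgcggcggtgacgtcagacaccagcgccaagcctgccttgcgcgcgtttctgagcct

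The words searched, on both strands, were GGGCGG (the GC box, bound by Sp1), CCGGAAG (ETS factors), CCAAT (the CCAAT box, bound by NF-Y), TATAAA (the TATA box) and TTCCCGC (E2F factors). The GC box reads CCGCCC on the other strand, and 2 of the 5 GC box words of Srsf2 overlap. The Snrpa1 window held 1 GC box word, 55 bases before the start. The Snrpf window held 3 CCAAT words, 173, 80 and 54 bases before it, and no GC box. The Srsf2 window held GC box words, a CCAAT word at 82 and a TATAAA at 29 bases. The Snrpg window held an ETS word at 145 and a CCAAT word at 66 bases. No word was shared by all 4 windows.

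Across all splicing factor windows, 69.2% held a GC box word, against 54.9% of windows of genes with a tested probe set and 32.7% of all windows of that length. For the ETS word the shares were 30.8%, 12.1% and 6.91%. For CCAAT they were 48.1%, 35.1% and 33.8%, for the E2F word 19.2%, 6.37% and 3.82%, and for TATAAA 7.69%, 7.02% and 12.4%. The median GC content was 60.8%, 59.2% and 52.4%. In the 33 windows of 24 genes with a probe set called lower late, the shares were 66.7% for the GC box, 18.2% for ETS, 54.5% for CCAAT, 21.2% for E2F and 9.09% for TATAAA. These are matches of letters and are not measured binding.

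SF3A and SF3B are complexes of the U2 snRNP. Of 15 tested probe sets, 3 were called lower late and none higher, 20% against 20.1% of all tested probe sets. The median log2 change was -0.31. An unadjusted p under 0.05 was found for 7 of the 15 and for 8206 of all 24825 tested. Sf3b1 encodes the subunit that holds the branch point. Its called probe set read 646 and 461 at 11.5 dpc, 396 and 433 at 12.5, 436 and 432 at 14.5, 301 and 280.3 at 16.5, and 261 and 287 at 18.5 dpc (log2 change -0.72 ± 0.12 SE, 1.65-fold, limma adjusted p = 0.0014). A second one on array A was not called (0.27, adjusted p = 0.45), and its signals varied between samples of 1 age, with 538.7 and 192.6 at 14.5 dpc. The remaining one, on array B, was not called either (-0.46, adjusted p = 0.11), although its late signals were all below the early ones.

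Sf3a3 had 1 probe set, which read 540.1 and 481 at 11.5 dpc, 466 and 546 at 12.5, 382 and 426 at 14.5, 356 and 342 at 16.5, and 345 and 306 at 18.5 dpc (log2 change -0.57 ± 0.11 SE, 1.48-fold, limma adjusted p = 0.0032). All 4 late signals were below all 4 early ones, while neighbouring ages overlapped at each end of the series. Of the 4 tested Sf3b2 probe sets, only the one on array C with the suffix _i was called (-0.83, adjusted p = 0.036), and the call was lost at adjusted p = 0.053 to 0.12 on leaving out either sample of 11.5 dpc, either sample of 12.5 dpc, either sample of 16.5 dpc or sample 2 of 18.5 dpc. The others changed by -0.26, -0.55 and 0.07. Sf3a1, Sf3a2, Sf3b3, Sf3b5 and Sf3b6 had no call.

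U2af1 encodes the small subunit of U2AF, which reads the AG at the end of the intron. Its probe set read 751 and 569 at 11.5 dpc, 937 and 919 at 12.5, 693 and 651 at 14.5, 522 and 460.2 at 16.5, and 463 and 464 at 18.5 dpc (log2 change -0.69 ± 0.11 SE, 1.61-fold, limma adjusted p = 0.0011). The signals were highest at 12.5 dpc and formed a narrow range of 460 to 522 in the late samples. U2af2 encodes the large subunit, which binds the pyrimidine-rich stretch before that AG. It read 1109 and 1181 at 11.5 dpc, 1307 and 1065 at 12.5, 968 and 1479 at 14.5, 1048 and 1005 at 16.5, and 892 and 832 at 18.5 dpc and was not called (-0.30, adjusted p = 0.14), although each late signal was below each early one. U2af1l4, a relative of U2af1, stayed between 170 and 216 in all samples (0.04, adjusted p = 0.86).

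Esrp1, a splicing regulator of epithelial cells, followed a course of its own. It read 26.1 and 50.4 at 11.5 dpc, 46.1 and 36.8 at 12.5, 24.7 and 30.5 at 14.5, 18.7 and 17.1 at 16.5, and 297 and 349.8 at 18.5 dpc. The signal was at most 50.4 in all samples up to 16.5 dpc and high in both samples of 18.5 dpc. Its test rests on the samples of 18.5 dpc, since the probe set passed the filter through them. Between 16.5 and 18.5 dpc it rose 9.98-fold (log2 change 3.32 ± 0.26 SE, limma adjusted p = 8.0e-05). The size depends on the pseudocount because the signals at 16.5 dpc are below the minimum of 50, with log2 changes of 4.10 at a pseudocount of 1 and 2.24 at 64. This was the only one of the 93 splicing factor probe sets called in that interval, in which 0.624% of all tested probe sets were called and 0.431% were called higher. In late minus early it was called higher (0.96, adjusted p = 0.0030), although the samples of 16.5 dpc were below the early ones. Esrp2, its relative, stayed at 15.2 to 51.6 and did not pass the filter, so it was not tested. Over the same interval 7 of 14 oocyte marker probe sets rose and none was called lower, and their summed signal went from 731 and 726 to 3171 and 3412. Of 12 probe sets for markers of surface epithelium and other epithelia none was called. Their sums were 3712 and 5108 at 16.5 and 5233 and 5101 at 18.5 dpc. An unadjusted p under 0.05 was found for 2 of the 12 and for 3247 of all 24825 tested. The part of these cells in the Esrp1 change was not tested.

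Probe sets of one gene often differed. Of the 27 genes with at least 2 tested probe sets, 14 had all log2 changes late minus early below 0, and 13 had both signs. In 9 of them probe sets of opposite sign lay more than 0.5 log2 units apart: Hnrnpd, Hnrnpr, Hnrnpul2, Sf3b1, Sf3b2, Snrpb2, Snrpd3, Srsf1 and Srsf11. For Hnrnpr, the called probe set (-0.66) stood beside -1.10, adjusted p = 0.090, and 0.29, adjusted p = 0.41. For Hnrnpd, the called one stood beside -0.89, adjusted p = 0.21, and 0.32, adjusted p = 0.63. Of these 27 genes 20 had at least 1 call, but only Hnrnpa2b1, Hnrnpdl and Srsf3 had every tested probe set called. Of the 21 genes with a single tested probe set 8 were called. These shares were not worked out over all genes, and a gene with more tested probe sets has more chances of a call. Of the 107 probe sets, 39 carry a suffix by which the array maker marks probes that may match other transcripts or were chosen under looser rules. Such a suffix was carried by 9 of the 35 probe sets called late minus early. These were the called ones of Hnrnpa0, Hnrnpm, Sf3b2, Snrpb2, Snrpe and Srsf2, and the brighter one of Srsf3. The others were those of Srsf1 at -1.02 and Hnrnpdl at -0.72. Levels of different probe sets are not comparable.

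**Figure D4:**
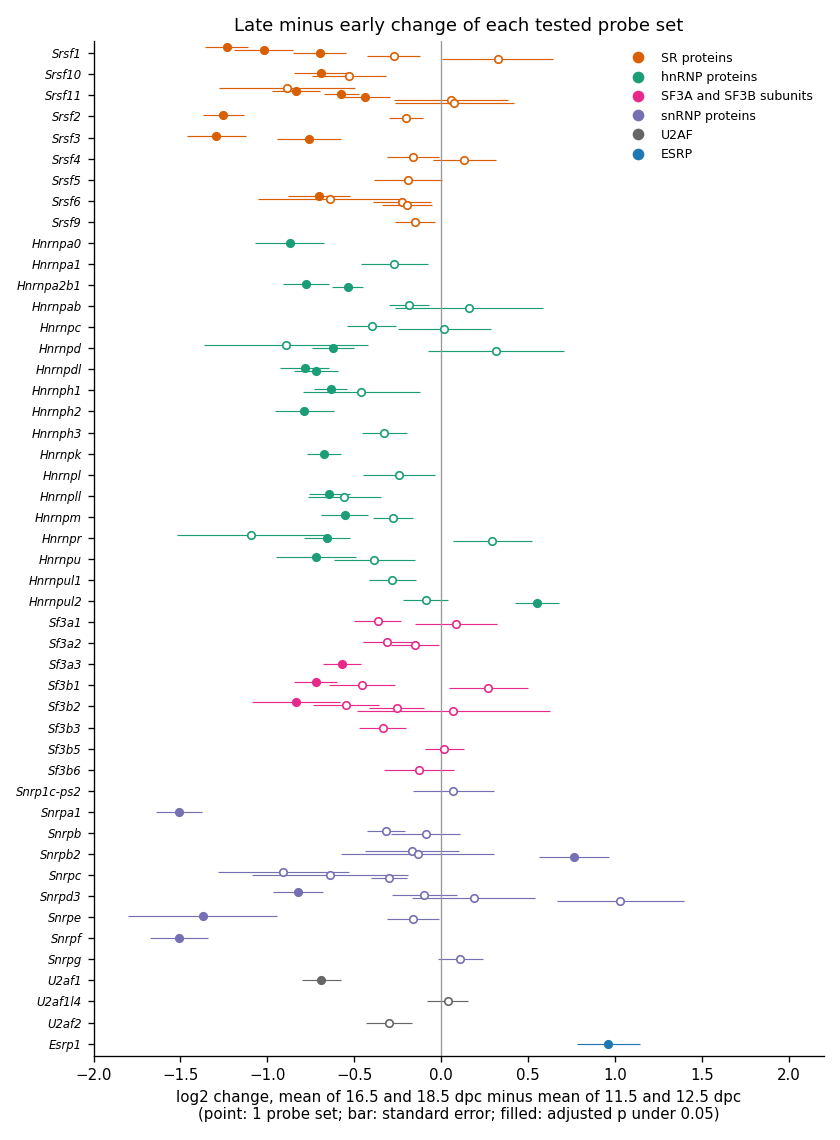
Log2 change late minus early with its SE (x axis) for the tested probe sets of each splicing factor gene (y axis), coloured by family, with filled points for limma adjusted p under 0.05. Filled points lie below 0 except for Esrp1, Hnrnpul2 and Snrpb2, and several genes have points on both sides of 0.

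Few splicing factor probe sets were called between neighbouring ages. In the test that any of the 5 ages differs, 29 of the 93 probe sets were called (31.2%), against 14.4% of all tested. From 11.5 to 12.5 dpc limma called none of the 93, against 0.226% of all. An unadjusted p under 0.05 was found for 15 of the 93 and for 3090 of all 24825 tested. From 12.5 to 14.5 dpc 2 were called, against 1.66% of all: the fall of Srsf1 on array B and the rise of Snrp1c-ps2. From 14.5 to 16.5 dpc only the fall of Hnrnpdl was called, against 0.689% of all (0.395% lower). The median log2 changes of the splicing factors over the successive intervals were -0.08, -0.11, -0.22 and -0.07, and those of all tested probe sets were 0.01, -0.01, 0.00 and -0.01. Between 11.5 and 18.5 dpc 26 were called lower and 2 higher, 30.1% together, against 14.5% of all (6.87% lower, 7.59% higher), with a median log2 change of -0.48. That contrast uses samples of the late minus early comparison. Without sample 1 of 18.5 dpc it gave 17 calls and without sample 2 of 18.5 dpc 13, while the test over all ages gave 19 and 18.

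Other genes of splicing were looked at as 4 lists. Each gene named from them is given by its probe set with the smallest adjusted p late minus early. Values of any other probe sets of these genes are not given. Of 69 tested probe sets of other snRNP and tri-snRNP proteins, 9 were called lower late and 4 higher, 18.8% together against 20.1% of all tested probe sets (median log2 change -0.10). Snrnp48, of the minor spliceosome, went from 547 ± 97.5 at 11.5 to 204 ± 31.3 at 18.5 dpc (mean ± SD, n = 2, as for the genes that follow; late minus early log2 change -0.86, adjusted p = 0.0041). Pdcd7, of the same particle, went the other way, from 86 ± 9.55 to 168 ± 0.99 (0.63, adjusted p = 0.0056). Of 81 probe sets of the Prp19 complex, helicases and second step factors, 17 were lower and 2 higher, 23.5% together (median -0.15). There Prpf19, which gives the complex its name, went from 408 ± 25.9 to 202 ± 26.4 (-0.86, adjusted p = 0.00021), and Rbm8a, of the exon junction complex, from 2236 ± 379.8 to 899.8 ± 25.6 (-0.87, adjusted p = 0.0014).

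Among the 4 lists the largest share of calls was that of other regulators of alternative splicing, with 37 of 131 probe sets lower and 10 higher, 35.9% together (median -0.29). The 4 genes with the smallest p were divided. Celf2, an RNA-binding regulator, rose from 1289 ± 374 at 11.5 to 8759.6 ± 1143 at 18.5 dpc (late minus early 2.27, adjusted p = 6.8e-06). Elavl2, of the Hu family of AU-binding proteins, rose from 137 ± 9.12 to 848 ± 5.94 (1.24, adjusted p = 3.2e-05). Tia1, a protein of stress granules, fell from 446 ± 16.9 to 126 ± 26.5 (-1.26, adjusted p = 0.00014), and Ptbp3, of the polypyrimidine tract binding proteins, from 287 ± 21.2 to 85.3 ± 2.12 (-1.35, adjusted p = 0.00020). The list of kinases, transporters and phosphatases of SR proteins also holds methyltransferases and factors that assemble Sm rings. Of its 41 probe sets, 7 were lower and 1 higher, 19.5% together against 20.1% of all (median -0.07). Prmt1, an arginine methyltransferase, fell from 1537 ± 122 to 730.0 ± 14 (-1.18, adjusted p = 1.1e-05). Wdr77, a partner of the methyltransferase that modifies Sm proteins, fell on 1 of 5 tested probe sets, from 324 ± 83.3 to 144 ± 20.0 (-0.97, adjusted p = 0.00049). Whether these lists differ from the splicing factor families was not tested.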

How the data were processed

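Total RNA of pooled embryonic ovaries was extracted with TRIzol, per the labels. The deposited files hold a signal intensity for each probe set on each array. Per the labels, the authors had scaled these intensities so that their mean was 125. The sources used here do not give the software. The trimmed mean of each array was 124.97 to 124.98. Control probe sets (198) were left out. Gene names came from the platform annotation, and 3 probe sets that match the name rule but list several genes were left out.

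Values were taken as log2(signal + 16). Probe sets with a signal of at least 50 on at least 2 of 10 arrays of their type were fitted with limma 3.58.1 (R 4.3.3), lmFit and eBayes with an intensity trend, with the 5 ages as groups and 5 residual degrees of freedom. P-values were adjusted by Benjamini-Hochberg over the 24825 tested probe sets of the 3 array types together. Each array type was normalized and fitted on its own. The fit was also run on simulated data with independent noise and known changes planted only in brighter probe sets. The planted changes were larger than the median fall found here. That run does not show how well smaller changes, or changes of dim probe sets, are recovered.

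Named were member genes with a call in any of 7 comparisons, the 10 largest changes late minus early, the U2AF and ESRP genes and Snrpb, genes with discordant probe sets, and up to 4 called genes by smallest p from each pathway list. The members and lists were chosen with earlier results of these data known. Alternatives were a pseudocount of 1 or 64, no filter, quantile normalization, probe sets with the plain suffix, the sample number as a block, and leaving out each sample. Deviations of samples with the same number were at most weakly correlated between ages. The correlations were -0.161 to 0.219 on array A, -0.093 to 0.098 on B and -0.025 to 0.07 on C. They were above 0.1 in 1 of 10 pairs of ages on array A and in 0 on arrays B and C. This does not tell whether samples of a number were handled together. The proteins encoded and their sequences were not analysed here.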

Additional observations from a re-analysis of the deposited data

How the results depend on the processing

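No called change of a splicing factor probe set in the 6 comparisons between ages reversed its direction under the 16 alternatives run. Of the 35 calls late minus early, 27 were kept in every setting that tested them; quantile normalization and the replicate block each kept 34. The number of calls with the replicate block was 34 late minus early, 28 over all ages, 29 for 18.5 minus 11.5, and otherwise as in the main analysis. The labels' sample numbers showed little sign of pairing in the correlations given above, which cannot exclude it. The median log2 change late minus early of -0.34 became -0.41 with a pseudocount of 1, -0.28 with 64 and -0.40 with plain probe sets only. With a pseudocount of 64, 12.5 minus 11.5 dpc gave 1 call. Without the filter, or with plain probe sets only, 14.5 minus 12.5 dpc gave 1 call and 16.5 minus 14.5 dpc 0.

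Leaving out each sample in turn gave 29 to 36 calls late minus early, with a median of -0.41 to -0.30, 18 to 34 over all ages, 13 to 33 for 18.5 minus 11.5, 0 to 6 for each of 12.5 minus 11.5, 14.5 minus 12.5 and 16.5 minus 14.5, and 1 to 2 for 18.5 minus 16.5 dpc. The 6 calls of 12.5 minus 11.5 dpc came without sample 2 of 11.5 dpc, and 5 and 6 calls of 14.5 minus 12.5 without sample 1 and 2 of 11.5 dpc; 16.5 minus 14.5 gave 6 without either. Where an age then had 1 sample, that sample was assumed to vary like the others. With 2 samples an age, signals near the minimum of 50 limit what single probe sets can show.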
